A study of Mus musculus with 69 samples.

Results

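Cells lacking p53 were followed through a single day of gastruloid development, from 48 h to 72 h after aggregation. p53KO-emiRFP cells had been sorted from WT+p53KO mosaic gastruloids, aggregates of mouse embryonic stem cells (line E14Tg2A) that were seeded with 150 WT-mCherry and 25 p53KO-emiRFP cells, and their RNA was sequenced in bulk. The 3 libraries of 72 h were compared with the 3 libraries of 48 h, which makes 6 of the 69 libraries of the series, and 21121 genes were tested. The p53KO line is 1 clone, made from the WT-emiRFP clone by CRISPR editing of Trp53 and selected with Nutlin-3a, and both carry the far-red nuclear reporter H2B-emiRFP670 under a CAG promoter. WT-mCherry is a separate wild-type clone with an H2B-mCherry reporter under an EF1α promoter. A pair of reference groups of the same ages was used to see where the p53KO cells differed, each with 3 libraries per time point: WT-emiRFP cells sorted from WT+WT gastruloids seeded with 150 cells of either colour, and the WT-mCherry cells sorted from the same WT+p53KO gastruloids. All gastruloids stood undisturbed in N2B27 medium until 48 h, then received fresh medium with CHIR99021, an inhibitor of GSK3 that activates Wnt signalling, until 72 h. Whether the 48 h cells were collected before the medium change is not stated in the sources used here, and they are taken as collected before it. Age and the Wnt pulse then cannot be told apart in any comparison of these times.

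Gastruloids pass through the first steps of axial patterning. Their cells leave naive pluripotency, pass through a formative state that resembles the epiblast around implantation, and after Wnt stimulation switch on Brachyury (T) and other genes of the primitive streak, the structure from which mesoderm and the posterior body arise. Wnt ligands bind Frizzled and Lrp receptors, which stabilises β-catenin, and β-catenin with TCF/LEF proteins then activates target genes, several of which encode inhibitors of the same pathway. p53 is a transcription factor that is stabilised by stress and activates genes of cell cycle arrest, apoptosis and its own inhibitor Mdm2.

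The 6 libraries held between 46388381 and 60887913 counts. Over 13397 genes, the log counts of replicates correlated with Pearson's r between 0.996 and 0.998, against 0.949 to 0.956 between the times, and between 16.3% and 20% of genes had the same count in any 2 replicates, so no library was a copy of another. The replicates came from 3 separate experiments. All values below are counts normalised by median-of-ratios size factors, fold changes are ratios of group means, and log2 fold changes, their standard errors (SE) and Benjamini-Hochberg adjusted p-values come from edgeR's quasi-likelihood test, with an adjusted p below 0.05 as the threshold for a call. In bulk RNA, fewer cells that express a gene and less RNA per cell cannot be told apart.

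The genotype was checked first. Trp53, on chromosome 11 from 69580359 to 69591873, stood at 1773, 1904 and 1761 normalised counts in the p53KO cells at 48 h and at 1684, 1916 and 1562 at 72 h. The times overlapped, and the change was -0.07 (SE 0.07, adjusted p = 0.45). These levels were 11.4% and 10.8% of the WT-emiRFP means of 15936 and 15944 at 48 h and 72 h. Eda2r, which encodes a death receptor of the TNF receptor family and is a direct p53 target, stood at 38.2, 50.2 and 49.3 and then at 30.9, 48.9 and 16.8, which was 1.33% and 0.918% of the WT-emiRFP means. Both genes remained far below the wild-type level at both times, so the sorted cells matched their label.

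Between 48 h and 72 h, 4869 genes rose in p53KO cells (23.1% of the genes tested) and 4930 fell (23.3%), in sum 46.4%. For 9483 genes (44.9%) the call held and the 3 libraries of one time lay wholly above the 3 of the other. At least a 2-fold change was called upward for 1454 genes (6.88%) and downward for 1821 (8.62%), and a change of 3 or more on the log2 scale for 201 (0.952%) and 153 (0.724%). The median log2 change over all genes was -0.04. The share of all genes called in each direction is therefore large, and the counts of each gene group below are to be read beside these percentages. Members of the groups were chosen with earlier results of these data known, so an excess over the percentages is not a test of a group.

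**Figure D1:**
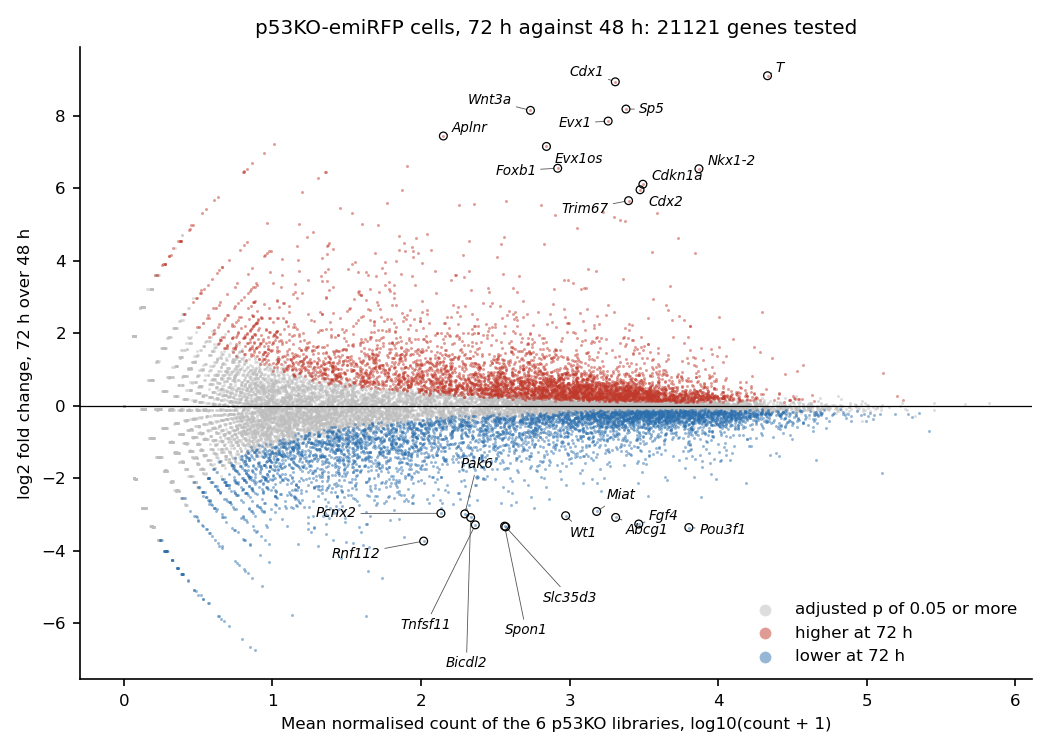
Each point is 1 of the 21121 genes tested, with the mean normalised count of the 6 p53KO libraries on the x axis (log10 of count + 1) and the log2 fold change of 72 h over 48 h on the y axis. Red and blue points passed an adjusted p of 0.05, and ringed genes are the 12 largest rises and the 12 largest falls with a mean of at least 100. T lies alone at the upper right, with a log2 fold change of 9.10.

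The largest rises were in genes of the streak and the posterior body. T, at chromosome 17 from 8434423 to 8442496, encodes the T-box factor that defines the streak. It stood at 71.9, 63.7 and 95.6 normalised counts at 48 h and at 44984, 40746 and 42829 at 72 h. Every 72 h library lay far above every 48 h library, a 556-fold rise (log2 9.10, SE 0.27, adjusted p = 4.3e-34). Sp5, a zinc-finger repressor that is itself a direct Wnt target, rose from 14.6, 18.4 and 16.1 to 5585, 3949 and 4785, which was 292-fold (log2 8.18, SE 0.27, adjusted p = 1.2e-32). Wnt3a, the ligand that sustains posterior growth, was almost silent at 48 h with 5.61, 3.67 and 2.01 and reached 1142, 904 and 1210 (log2 8.15, SE 0.41, adjusted p = 4.3e-24). The caudal homeobox genes rose with them, Cdx1 by 490-fold from a mean of 8.27 to 4050 and Cdx2 by 62.01-fold from 94.5 to 5861. Evx1, a homeobox gene of the posterior streak, rose 234-fold from 15.5 to 3617. Its antisense neighbour Evx1os rose 147-fold, and since a strand setting of the counting is not given in the sources used here, reads of the overlap may have been shared between them. Nkx1-2, a homeobox gene of the caudal epiblast where neural and mesodermal progenitors arise, rose 92.5-fold from 156, 179 and 141 to 14493, 13488 and 16033. The other genes among the 12 largest rises were Aplnr (202-fold), the receptor of the peptides apelin and Elabela on early mesendoderm, the forkhead gene Foxb1 (93.7-fold), Cdkn1a (68.7-fold) and the tripartite-motif gene Trim67 (50.4-fold). Cdkn1a, a p53 target, is described with the other p53 genes.

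Promoters were read for the core TCF/LEF motif. The motif was searched as CTTTGAA or CTTTGAT or CTTTGTA or CTTTGTT on both strands in the 250 bases before each start site (RefSeq, GRCm38.p6). It stood in 14.8% of 32851 promoters and for 16.8% of 27025 genes in at least 1 promoter. Of the Wnt target genes that rose, 8 had a promoter in the table and 4 of them held the motif. Axin2, Tcf7, Nkd1 and Rnf43 held no match, and T, Sp5, Dkk1 and Tnfrsf19 were the 4 that did. Stretches of the promoters of T, Sp5 and Dkk1, which are among these 4, and of Msgn1, a streak gene that rose, are printed 5′ to 3′ along the strand of the gene, with capitals marking each match on either strand. They lie at chr17:8434173-8434232 on the plus strand (T), chr2:70474688-70474832 on the plus strand (Sp5), chr19:30549557-30549636 on the minus strand (Dkk1) and chr12:11209069-11209168 on the minus strand (Msgn1).
T: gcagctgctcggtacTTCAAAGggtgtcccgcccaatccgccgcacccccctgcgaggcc
Sp5: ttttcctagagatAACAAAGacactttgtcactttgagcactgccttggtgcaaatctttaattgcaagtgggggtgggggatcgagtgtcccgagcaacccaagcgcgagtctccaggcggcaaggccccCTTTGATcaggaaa
Dkk1: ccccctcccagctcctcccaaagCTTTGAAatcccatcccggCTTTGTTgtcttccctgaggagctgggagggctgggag
Msgn1: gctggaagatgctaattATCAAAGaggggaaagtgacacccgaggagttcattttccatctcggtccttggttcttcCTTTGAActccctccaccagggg
The T stretch holds 1 match and each of the other stretches holds 2. Among the streak genes that rose, 3 of 14 with a promoter (21.4%) held the motif, with T counted here as well as among the Wnt targets. A match describes the letters only, and binding was not measured.

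The primitive streak and nascent mesoderm list held 21 genes, of which 19 rose, 1 fell and 1 was not called (2 lower with the replicate experiment as a term in a fit of these 6 libraries), with a median log2 change of 4.20. Besides T, Evx1, Nkx1-2 and the Cdx genes, Mixl1, a paired-type homeobox gene of the streak, rose 40.9-fold from 66.2, 94.3 and 78.5 to 3360, 2919 and 3490. Fgf8, the ligand that drives cells out of the streak, rose 36.8-fold from a mean of 106 to 3888. Genes of the anterior streak and its derivatives rose as well. Eomes, the T-box factor of mesendoderm, rose 4.72-fold to 2604, 2603 and 2061, Gsc, a gene of the organiser, rose 20.4-fold to 209, 153 and 132, and Lhx1 rose 7.86-fold to 121, 110 and 112. Genes of the presomitic mesoderm, which forms later, were at low counts. Msgn1 was counted in 1 of the 3 libraries of 48 h and stood at 92.7, 38.2 and 66.1 at 72 h, and Tbx6, its T-box partner, rose 1.86-fold from 44.6 to 83.1 (log2 0.87, SE 0.28, adjusted p = 0.0074). In the p53KO cells of 96 h the means of Msgn1 and Tbx6 were 4873 and 5317. Mesp2, which marks the front of the segmenting mesoderm, was the member that fell, 1.91-fold to a mean of 21.1.

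**Figure D2:**
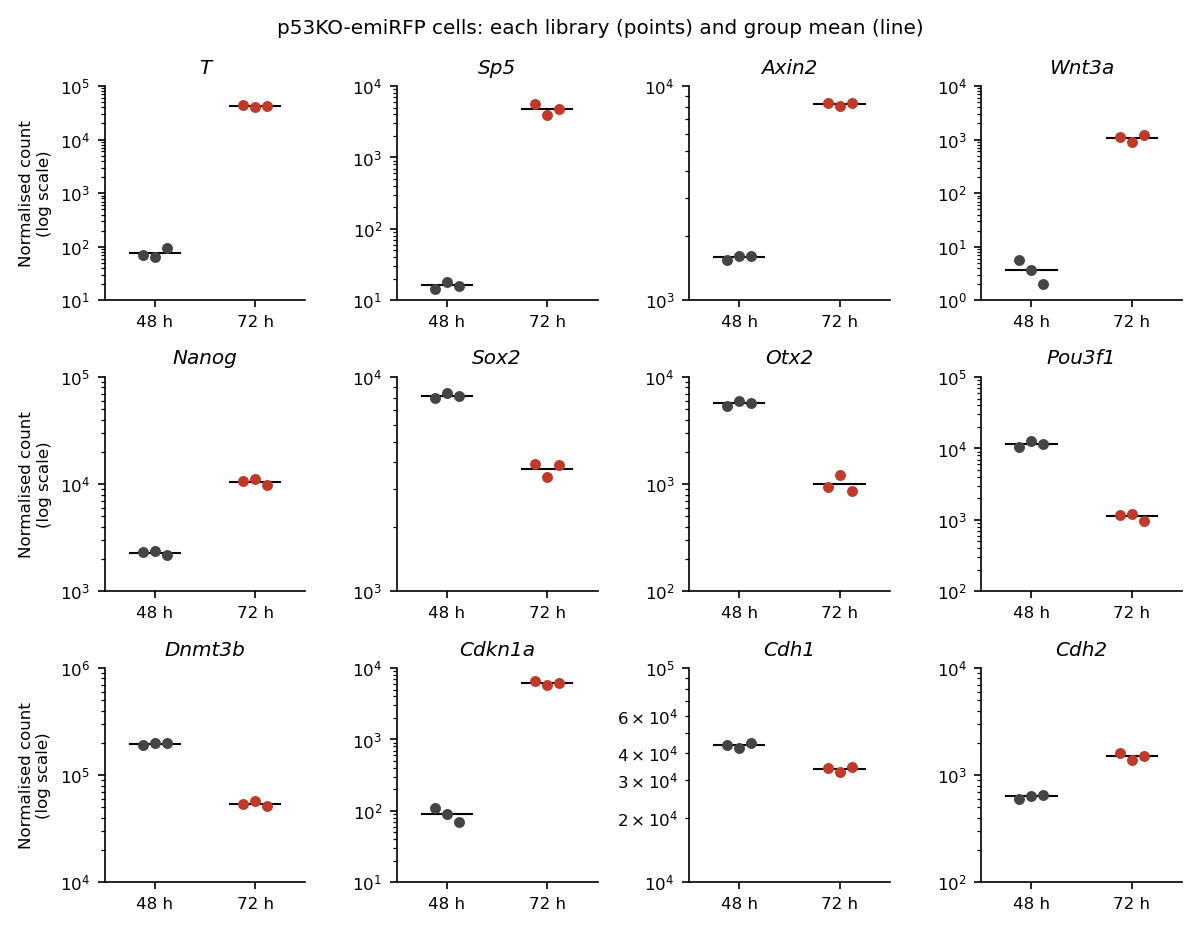
Normalised counts (log scale) of 12 genes in each p53KO library at 48 h and 72 h, with a line at the group mean. In all 12 panels the 3 libraries of one time lie apart from the 3 of the other, from T, which rose from a mean of 77.1 to 42853, to Cdh1, which fell from 43552 to 33695.

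Among the Wnt genes, more ligands and more target and feedback genes rose than fell, while the receptors went both ways. Of 19 Wnt ligands, 10 rose and 1 fell (median log2 change 1.89). Wnt3, the ligand needed to start the streak, rose 22.2-fold from 55, 62.4 and 57.4 to 1290, 1401 and 1189. Wnt8a rose 19.03-fold from a mean of 357 to 6800, Wnt5b 9.40-fold from 241 to 2267, and Wnt11, which signals through the non-canonical branch, 23.7-fold from 16.9 to 401. Wnt7b, a ligand of neural and epithelial tissue, was the one that fell, from 38.2, 56.3 and 49.3 to 14.3, 14.2 and 11.2 (3.62-fold). The proteins that make Wnt secretable rose too. Porcn, which attaches the lipid to Wnt, rose 5.93-fold and Wls, its carrier to the membrane, 6.38-fold. Of the 24 target and feedback genes, 15 rose and 2 fell (median 0.87), or 4 lower with the replicate experiment in the fit. Axin2, the scaffold of the complex that destroys β-catenin and the most used readout of the pathway, stood at 1547, 1613 and 1607 at 48 h and at 8352, 8073 and 8325 at 72 h. The replicates of each time lay within a few percent of each other, and the rise was 5.19-fold (log2 2.38, SE 0.08, adjusted p = 6.2e-33).

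Other inhibitors rose as well. Nkd1, which antagonises Dishevelled, rose 5.87-fold, Notum, the enzyme that strips the lipid from Wnt, 3.95-fold, and Dkk1, which blocks the Lrp co-receptors, 17.5-fold from a mean of 9.51 to 166. The secreted antagonist Sfrp1 fell 2.21-fold. The nuclear partners of β-catenin differed among themselves. Tcf7 rose 1.53-fold, Lef1 stood at 4937, 4888 and 4860 and then at 4369, 4679 and 4929 (adjusted p = 0.59), and Tcf7l1, the TCF protein that acts mainly as a repressor in pluripotent cells, fell 2.99-fold from a mean of 4643 to 1553. Among 21 receptors and transducers 7 rose and 7 fell (median 0.02). Fzd10 rose 24.5-fold from 449, 431 and 381 to 10725, 9436 and 10762, and Fzd7 fell 4.04-fold from 14675, 15543 and 16181 to 3652, 4095 and 3737. The 2 Frizzled genes thus changed in opposite directions with no overlap of the times in either.

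Signals that act beside Wnt in the streak changed in both directions. Of 20 Nodal pathway genes 10 rose and 5 fell (median 0.15), with 3 lower without 48 h replicate 3 or any 1 of the 72 h libraries. Nodal, the ligand, rose 4.68-fold from 1003, 924 and 841 to 4576, 4439 and 3925, and its target Lefty1, a secreted Nodal inhibitor, rose 4.60-fold. Of 26 FGF ligands and receptors 7 rose and 6 fell (median 0.12). Fgf8 and Fgf17 rose, whereas Fgf4, the ligand with which pluripotent cells stimulate each other, fell 9.60-fold from 5289, 5342 and 5221 to 538, 601 and 512. The receptors diverged, Fgfr1 rising 1.66-fold and Fgfr2 falling 2.11-fold. Of 17 feedback and target genes of ERK, the kinase downstream of FGF, 5 rose, or 3 without 48 h replicate 1, and 7 fell (median -0.12), with Il17rd up 3.03-fold, Spred1 up 2.52-fold and Spry4 down 2.18-fold. Of 25 BMP genes 13 rose and 2 fell (median 0.48). Fst, which encodes follistatin, an extracellular antagonist of activin and BMP, rose 18.4-fold from a mean of 720 to 13248, Bmp7 rose 5.70-fold, and the BMP target genes Id1 and Smad6 rose 3.31-fold and 2.88-fold. Bmp4 itself fell 1.89-fold from a mean of 168 to 89.0.

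**Figure D3:**
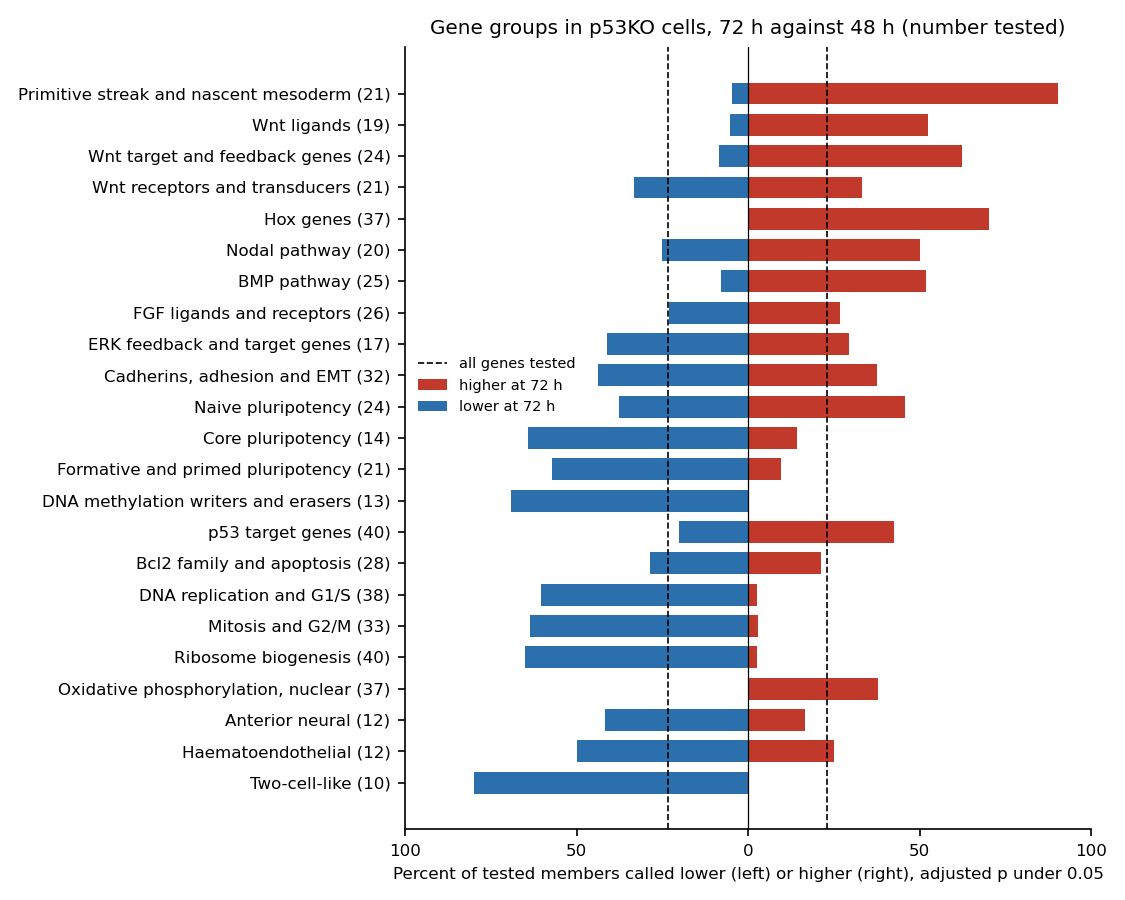
For each gene group (number of members tested in brackets), the percent called higher at 72 h extends to the right and the percent called lower to the left, with dashed lines at the shares over all genes, 23.1% and 23.3%. Streak genes reach 90.5% and Hox genes 70.3% on the right, while two-cell-like genes reach 80.0% and DNA methylation genes 69.2% on the left.

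Hox genes, which give cells their position along the body axis and are opened in order from the 3′ end of each cluster, rose without an exception among those called. Of 37 tested, 26 rose and none fell, with a median log2 change of 2.54. Here and for the other groups said to have none in a direction between these times, edgeR at an unadjusted p below 0.05 and DESeq2 also called 0. The median change was larger toward the 3′ end. In groups 1 to 3, 7 of 8 rose with a median of 5.12, in groups 4 to 8, 13 of 15 with a median of 2.54, and in groups 9 to 13, 6 of 14 with a median of 1.21. Hoxb1 rose from 25.8, 24.5 and 30.2 to 1254, 968 and 1540, without overlap. Hoxa5 rose 63.6-fold, though only to 139, 128 and 167, and Hoxb9 rose 8.58-fold to 234, 228 and 216. Single genes did not follow the order of the medians. Hoxb8, with means of 6.74 and 134, had a log2 change of 4.29, and farther along Hoxd9 rose from 4.42 to 62.2 (log2 3.90) and Hoxa13 from 0.748 to 15.8 (log2 4.20, SE 0.72, adjusted p = 2.7e-06). Hoxa10 and Hoxb13 rose as well, with log2 changes of 2.68 and 1.78. Hoxa11 stayed near the limit of counting at means of 2.65 and 2.81, and Hoxd13 gave 113 and 99.8 (log2 -0.18, SE 0.19, adjusted p = 0.47). The share of genes that rose also differed between the clusters, which was not tested. All 10 tested genes of the Hoxb cluster and 10 of 11 of the Hoxa cluster rose, against 3 of 9 of Hoxc and 3 of 7 of Hoxd. Summed over the Hoxa cluster, the libraries held 56.4 to 126 normalised counts at 48 h and 2164 to 2751 at 72 h. The sums of Hoxb were 88.7 to 110 and then 1626 to 2332. Those of Hoxc were 66.1 to 86.4 and then 139 to 200, and those of Hoxd 144 to 180 and then 309 to 340.

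**Figure D4:**
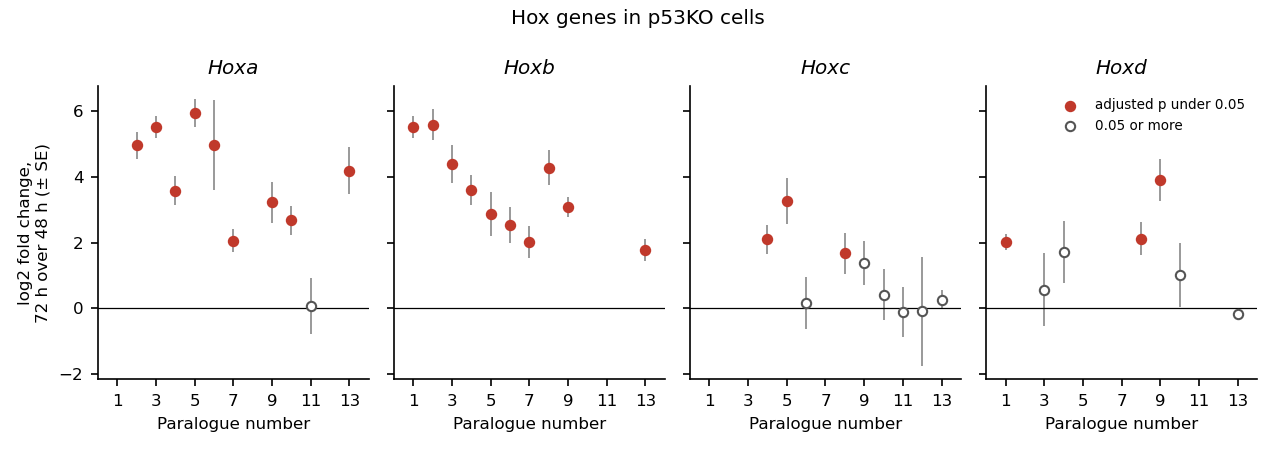
Log2 fold change of 72 h over 48 h for tested Hox genes, with 1 panel per cluster, the paralogue number on the x axis and bars of 1 SE. Filled points passed an adjusted p of 0.05 and open points did not. Values reach 5.94 for Hoxa5, lie at 4.20 for Hoxa13, and are near 0 for Hoxa11 and Hoxd13.

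Pluripotency genes went both ways. The formative and primed list was mostly lower, with 12 of 21 falling and 2 rising (median -0.84), or 4 rising with the replicate experiment in the fit. Pou3f1, the POU factor of the epiblast also known as Oct6, stood on chromosome 4 from 124656807 to 124660655 and fell 10.3-fold from 10533, 12608 and 11532 to 1184, 1224 and 971 (log2 -3.36, SE 0.17, adjusted p = 1.1e-23). Otx2, the homeobox factor of the formative state and of the anterior epiblast, fell 5.61-fold from 5417, 5923 and 5727 to 946, 1230 and 866. In both genes each 72 h library lay below each 48 h library. Fgf5, the standard marker of the primed epiblast, gave 3580, 3515 and 3750 and then 2930, 3286 and 2320, which did not pass the test over all libraries (log2 -0.34, SE 0.19, adjusted p = 0.13). It was called lower in a fit of these 6 libraries with the replicate experiment as a term (adjusted p = 3.1e-05), and also without the filter on low counts, in a fit of these 6 libraries without that term and in a fit of the sorted libraries of 48 h and 72 h.

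The core factors did not move as one. Pou5f1 (Oct4) gave 31697, 31619 and 28255 at 48 h and 31672, 30301 and 28513 at 72 h, overlapping ranges with an adjusted p of 0.93. Sox2 fell 2.19-fold from 8014, 8425 and 8155 to 3920, 3422 and 3880, and Utf1, a chromatin protein of pluripotent cells, fell 4.37-fold. Nanog rose 4.58-fold from 2346, 2368 and 2205 to 10620, 11225 and 9838 (log2 2.20, SE 0.09, adjusted p = 9.2e-28). Over the core list, 9 of 14 genes fell and 2 rose (median -0.47). Of 24 naive genes 11 rose and 9 fell (median 0.18). Gbx2, a homeobox gene that Wnt and LIF both induce, rose 6.34-fold, Tfcp2l1 2.44-fold and Tbx3 2.31-fold, and Esrrb, the orphan nuclear receptor of naive cells, rose 1.42-fold from a mean of 2393 to 3396. Tcl1, a co-activator of AKT, fell 2.95-fold, Spp1 (osteopontin) 2.38-fold, Nr0b1 1.51-fold and Zfp42 (Rex1) 1.26-fold. For scale, the unmixed p53KO stem cells of 0 h had 43992 normalised counts of Esrrb and 45247 of Zfp42, so both genes remained far below their stem cell levels at 72 h. Nanog, at a 0 h mean of 29218, was nearer to it.

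The enzymes that write DNA methylation fell with the formative genes. Of 13 writers and erasers of DNA methylation 9 fell and none rose (median -0.38). Dnmt3b, the de novo methyltransferase most abundant in the epiblast, stood at 190312, 200238 and 200976 at 48 h and fell 3.64-fold to 54062, 56901 and 51503 (log2 -1.86, SE 0.09, adjusted p = 2.8e-25). Dnmt3a fell 2.63-fold from a mean of 36989 to 14053, their cofactor Dnmt3l 2.57-fold and Tet1, which oxidises methylated cytosine, 2.34-fold. The other genes among the 12 largest falls were Rnf112 (13.4-fold), Slc35d3 (10.1-fold), Spon1 (10.01-fold), Tnfsf11, the cytokine RANKL (9.71-fold), Bicdl2 (8.57-fold), Abcg1, a cholesterol exporter (8.49-fold), Wt1, a zinc-finger factor (8.18-fold), the kinase Pak6 (7.93-fold), Pcnx2 (7.78-fold) and the long non-coding RNA Miat (7.57-fold).

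Adhesion genes showed both sides of an epithelial to mesenchymal change in part. Of 32 genes of cadherins, adhesion and this transition, 12 rose and 14 fell (median -0.19). Cdh1 (E-cadherin) fell only 1.29-fold, from 43583, 42509 and 44565 to 33986, 32740 and 34360, while Cdh2 (N-cadherin) rose 2.38-fold from 603, 644 and 653 to 1602, 1391 and 1522. The repressors of Cdh1, Snai1 and Zeb2, rose 2.73-fold and 4.67-fold, and the intermediate filament gene Vim rose 2.42-fold. Keepers of the epithelial state fell, Grhl2, a transcription factor, 2.53-fold and Esrp1, a splicing factor, 1.75-fold. Cldn4, a tight-junction claudin, fell 2.32-fold from a mean of 2700 to 1164.

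Several p53 target genes rose in p53KO cells. Of 40 such genes 17 rose and 8 fell (median 0.15). Cdkn1a encodes p21, the inhibitor of cyclin-dependent kinases through which p53 arrests the cycle. It stood at 109, 89.4 and 69.5 normalised counts at 48 h and at 6485, 5817 and 6102 at 72 h, a 68.7-fold rise (log2 6.11, SE 0.16, adjusted p = 3.5e-37). The p53KO level was 3.36% of the WT-emiRFP mean at 48 h and 38.5% at 72 h, and Cdkn1a also rose in WT-emiRFP cells, from 2659 to 15930. Ddit4, an mTORC1 inhibitor that hypoxia and glucocorticoids also induce, rose 5.20-fold from 1605, 2140 and 1984 to 10030, 10279 and 9480. Fas, the death receptor, was counted at 0 to 4.03 at 48 h and at 7.84 to 8.89 at 72 h, near the limit of counting at both times. Mdm2, which marks p53 for degradation, fell 1.61-fold from 4151, 4141 and 4269 to 2681, 2611 and 2491, and Gtse1 and Gdf15 fell 1.69-fold and 2.32-fold. Of the death genes, Bbc3 (Puma) fell 1.40-fold from 463, 535 and 423 to 339, 365 and 309 (adjusted p = 0.017), a call that was lost without 48 h replicate 2 or without 72 h replicate 3 (adjusted p up to 0.097). Pmaip1 (Noxa) gave 7071, 7477 and 7551 and then 7412, 7442 and 7325 (adjusted p = 0.98). Of 28 genes of the Bcl2 family and apoptosis 6 rose and 8 fell, or 5 without 48 h replicate 2 or 72 h replicate 3: the survival gene Bcl2 rose 1.93-fold, the survival gene Mcl1 fell 1.35-fold and the death gene Bcl2l11 (Bim) fell 1.97-fold.

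Growth and division genes were lower by small amounts. Of 38 genes of DNA replication 23 fell and 1 rose (median -0.17, 4 higher with the replicate experiment in the fit), and of 33 genes of mitosis 21 fell and 1 rose (median -0.24). Mcm2, of the replicative helicase, fell 1.23-fold, Rfc5 of the clamp loader 1.57-fold, and Ccnb1, the mitotic cyclin, 1.52-fold from a mean of 24140 to 15853. Without the filter on low counts, 15 replication genes were called lower. Ccne1 (cyclin E1) fell 1.73-fold, whereas Ccnd2 (cyclin D2) rose 6.88-fold from 429, 437 and 514 to 2846, 3202 and 3450. Of 40 genes of ribosome biogenesis 26 fell and 1 rose (median -0.19), among them Ncl (nucleolin), which fell 1.23-fold, and in the Myc network, 5 of 12 fell, or 3 without 72 h replicate 1, and 3 rose, with Mycn down 2.86-fold. Genes of cytosolic ribosomal proteins were called in 1 of 44 cases, a fall (1 was higher at an unadjusted p below 0.05 and 0 by DESeq2), and in 23 cases, 22 falls and 1 rise, with the replicate experiment in the fit, at a median change of -0.07. Of 37 nuclear genes of oxidative phosphorylation 14 rose and none fell (median 0.17), or 26 higher and 3 lower with the replicate experiment in the fit and 8 higher without 48 h replicate 3 or 72 h replicate 1, while none of the 13 genes of the mitochondrial genome was called (4 lower with the replicate experiment in the fit). Glycolysis and hypoxia genes went both ways, 9 of 35 higher and 15 lower, and of the glucose transporters Slc2a1 fell 1.83-fold while Slc2a3 rose 3.09-fold from 8502, 8471 and 8567 to 23800, 26305 and 28892. Of 3 further genes chosen to be named, Foxo3, a forkhead factor, rose 1.42-fold from a mean of 720 to 1023, Trim24 fell from a mean of 9092 to 6068 and Dnm1l stood at 11565 and 10962 (adjusted p = 0.50, or 0.034 with the replicate experiment in the fit).

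Markers of other cell types were read to see which fates the sorted cells held. Anterior neural markers fell in 5 of 12 cases and rose in 2 (median -0.69), or in 1 with the replicate experiment in the fit and without replicate 1 or 2 of 48 h or 2 or 3 of 72 h. Their summed level went from 5957 to 6517 normalised counts over the 48 h libraries to 1248 to 1696 at 72 h, most of which was Otx2, and Pax6 fell 5.28-fold to a mean of 48.4. Haematoendothelial markers fell in 6 of 12 and rose in 3, their sum going from 2843 to 2918 over the 48 h libraries to 2189 to 2241, with Tal1 and Gata1 down 5.01-fold and 3.72-fold and Kdr, the VEGF receptor of early mesoderm, up 2.50-fold from 26.9, 14.7 and 22.2 to 46.3, 59.6 and 53.8. Of 14 markers of endoderm and notochord 3 rose (21.4%, near the 23.1% of all genes) and none fell, with a median log2 change of 0.17. Their sums were 7074 to 7558 and then 16490 to 16934, a rise that was not traced to single members. Foxa2 was one of the 3 that rose, up 7.14-fold to 573, 512 and 480, a small part of the summed counts. Sox17, which defines definitive endoderm, stood at means of 12.2 and 10.5. In the trophoblast list, 2 of 9 rose, Cdx2 and Tfap2c, which the posterior epiblast also uses, and 4 fell, including Plet1 (7.78-fold) and Krt7 (6.53-fold), with Tpbpa and Prl3d1 at 0 in all 6 libraries. Whether cells of these types were among those sorted was not tested. Two-cell-like genes, which mark a rare state of stem cell cultures, fell in 8 of 10 cases and rose in none (median -1.66), and Zscan4c fell 3.24-fold from 150, 143 and 157 to 49.7, 60.5 and 29.1. Immediate early genes, which respond to dissociation, were called higher in 3 of 17 and lower in 2, or in 9 and 4 with the replicate experiment in the fit, and 1 was higher without 72 h replicate 2.

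Most of these changes were shared with wild-type cells. In WT-emiRFP cells, 5288 genes rose and 5196 fell between 48 h and 72 h. Of the 9799 genes called in p53KO cells, 7969 (81.3%) were called in the same direction in WT-emiRFP cells, which is 76.0% of the WT-emiRFP calls, and 43 were called in opposite directions. Over 12057 genes with a mean count of at least 100, the log2 changes of the 2 lines correlated with r = 0.949 (0.77 over all 21121 genes tested), across genes that are not independent replicates. The mean of T at 72 h was 51830 in WT-emiRFP, 42273 in WT-mCherry and 42853 in p53KO cells. With WT-mCherry cells of the same gastruloids, 8117 genes (82.8% of the p53KO calls and 75.2% of the WT-mCherry calls) were called in the same direction and 42 in opposite directions.

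A difference between the changes was then tested gene by gene. Against WT-emiRFP cells, the change of p53KO cells was higher for 133 genes (0.63%) and lower for 239 (1.13%), in sum 1.76%, of which 20 (0.0947%) and 86 (0.407%) differed by at least 1 on the log2 scale. Here genotype, neighbours and seeding number cannot be told apart. Against the WT-mCherry cells of the same gastruloids, it was higher for 82 (0.388%) and lower for 351 (1.66%), in sum 2.05%, with 18 (0.0852%) and 114 (0.54%) past 1. In that comparison the clone and its reporter cannot be told apart from the genotype. Both comparisons use the same p53KO libraries, so their values are given side by side and not as independent evidence. With the replicate experiment in a fit of the compared groups alone, the counts were 752 and 783 against WT-emiRFP, and 1088 and 1351 against WT-mCherry. The shares of 1.76% and 2.05% come from the fit of all libraries, which has no term for the replicate experiment, and they depend on that choice. Among the 239 genes with a lower change than in WT-emiRFP, 148 rose in WT-emiRFP cells, whereas in p53KO cells 70 rose, 113 fell and 56 were not called, and 22 fell in p53KO cells while rising in WT-emiRFP cells. Among the 133 with a higher change, 99 fell in WT-emiRFP cells and 40 in p53KO cells.

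Cdkn1a had the largest difference of all genes named by rule on the higher side. Its 68.7-fold rise compared with 5.99-fold in WT-emiRFP cells (difference 3.53, SE 0.19, adjusted p = 2.3e-20) and 6.72-fold in WT-mCherry cells, from 2192 to 14734 (difference 3.36, SE 0.19, adjusted p = 2.3e-19). The p53KO level nevertheless stayed below both wild-type levels at both times. Mdm2 and Gtse1 showed the reverse. Mdm2 fell in p53KO cells and gave 9984 and 9635 in WT-emiRFP cells (difference -0.64, SE 0.11, adjusted p = 0.00026), and 10202 and 10191 in WT-mCherry cells (difference -0.69). For Gtse1 the differences were -0.61 and -0.62. Pmaip1, level in p53KO cells, fell 1.80-fold in WT-emiRFP cells (difference 0.85, SE 0.15, adjusted p = 0.00025) and 1.49-fold in WT-mCherry cells (difference 0.58, adjusted p = 0.021), a call lost without replicate 1 of either line at 48 h and without WT-mCherry replicate 2 or 3 at 72 h (adjusted p up to 0.074). In the whole p53 target list, 2 genes had a higher and 2 a lower change than in WT-emiRFP (12 lower with the replicate experiment in the fit, 5 and 4 lower without WT-emiRFP replicate 3 of 48 h and replicate 1 of 72 h). Against WT-mCherry 3 were higher (1 without p53KO replicate 1 of 48 h or WT-mCherry replicate 3 of 72 h) and 4 lower (12 with the replicate experiment in the fit, 2 without WT-mCherry replicate 2 of 48 h).

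Some naive pluripotency genes rose less, or fell more, in p53KO cells. Of the 24, 8 had a lower change than in WT-emiRFP cells, none a higher one, and 16 were not called (median difference -0.41, against -0.01 over all genes, of which 1.13% were lower), with 6 to 7 lower when any 1 library was left out and 12 lower and 1 higher with the replicate experiment in the fit. At an unadjusted p below 0.05 edgeR gave 1 higher in either comparison, and DESeq2 gave 0. Against WT-mCherry cells 12 were lower, beside 1.66% of all genes, and none higher (median -0.52, 8 to 11 lower without 1 library, 1 higher with the replicate experiment in the fit). Gbx2 rose 6.34-fold in p53KO cells and 13.7-fold in WT-emiRFP cells (difference -1.11, SE 0.16, adjusted p = 6.2e-06). Tcl1 fell from 302, 279 and 257 to 104, 90.7 and 89.6 in p53KO cells, while its WT-emiRFP means were 169 and 155 (difference -1.43, SE 0.21, adjusted p = 1.2e-05). Zfp42 and Nr0b1 moved in opposite directions. Zfp42 fell 1.26-fold in p53KO cells and rose 1.26-fold in WT-emiRFP cells (difference -0.67, SE 0.12, adjusted p = 0.00043), and Nr0b1 fell 1.51-fold and rose 1.43-fold (difference -1.10, SE 0.20, adjusted p = 0.00041). Nr5a2 rose 1.82-fold and Prdm14 3.45-fold in WT-emiRFP cells, but neither was called in p53KO cells (differences -0.75 and -1.68). At 48 h the p53KO means of Gbx2, Tcl1, Zfp42, Nr0b1, Nr5a2 and Prdm14 all lay above those of WT-emiRFP, so the lower change began from a higher level. At 72 h they were 2274 and 2272 for Gbx2, 94.7 and 155 for Tcl1, 2965 and 3540 for Zfp42, 330 and 538 for Nr0b1, 823 and 788 for Nr5a2, and 29.4 and 59.3 for Prdm14 in p53KO and WT-emiRFP cells. Esrrb (difference -0.52, adjusted p = 0.017) and Spp1 (-0.58, adjusted p = 0.048) lost the call in 5 and in 11 of the 12 fits without 1 library (adjusted p up to 0.072 and 0.15). Nanog, in the same list, rose 4.58-fold beside 3.63-fold in WT-emiRFP cells. Its difference was not called in the fit of all libraries. It was called without the filter on low counts, with the sorted libraries of 48 h and 72 h alone, and with the replicate experiment in a fit of the compared groups.

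Genes of the integrated stress response, which cells switch on through ATF4 when amino acids run short or proteins misfold, included genes with a higher change in p53KO cells than in WT-emiRFP cells, where several of these fell. Within p53KO cells, 6 of 27 genes rose and 4 fell (22.2% and 14.8%, beside 23.1% and 23.3% of all genes). With the replicate experiment in the fit 15 were higher and 5 lower. Of the 27, 12 had a higher change than in WT-emiRFP cells and none a lower one, beside 0.63% and 1.13% of all genes (median difference 0.45, 10 to 12 higher without 1 library, 24 with the replicate experiment in the fit). Chac1, a glutathione-degrading enzyme, gave 1510, 2087 and 1970 and then 2210, 2311 and 1984 in p53KO cells (adjusted p = 0.0033 with the replicate experiment in the fit), and fell 2.61-fold from 1792 to 687 in WT-emiRFP cells (difference 1.61, SE 0.28, adjusted p = 0.0002). Trib3, a pseudokinase that restrains ATF4, gave means of 2743 and 2615 in p53KO cells and fell 2.43-fold in WT-emiRFP cells (difference 1.21, SE 0.22, adjusted p = 0.00037). Psat1, of serine synthesis, rose 1.23-fold from 37451, 38214 and 40379 to 47671, 48008 and 46800, and fell 1.29-fold in WT-emiRFP cells (difference 0.67, SE 0.09, adjusted p = 1.9e-06). Mthfd2, of mitochondrial folate metabolism, fell 1.26-fold against 2.08-fold (difference 0.72), Asns (asparagine synthetase) rose 1.76-fold against 1.26-fold (difference 0.48), and Vldlr rose 2.79-fold against 1.44-fold (difference 0.95, adjusted p = 0.018). The call of Vldlr was lost at 48 h without p53KO replicate 1 or 2 or WT-emiRFP replicate 3 (adjusted p up to 0.088). Atf4 itself gave a difference of 0.32 (adjusted p = 0.13, or 0.0088 with the replicate experiment in the fit). Against the WT-mCherry cells of the same gastruloids none of the 27 passed in either direction (median difference 0.22). At an unadjusted p below 0.05, 10 were higher and 0 lower, DESeq2 called 1 higher, and 16 were higher with the replicate experiment in the fit. Chac1 fell 1.41-fold in those WT-mCherry cells and Trib3 1.56-fold.

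**Figure D5:**
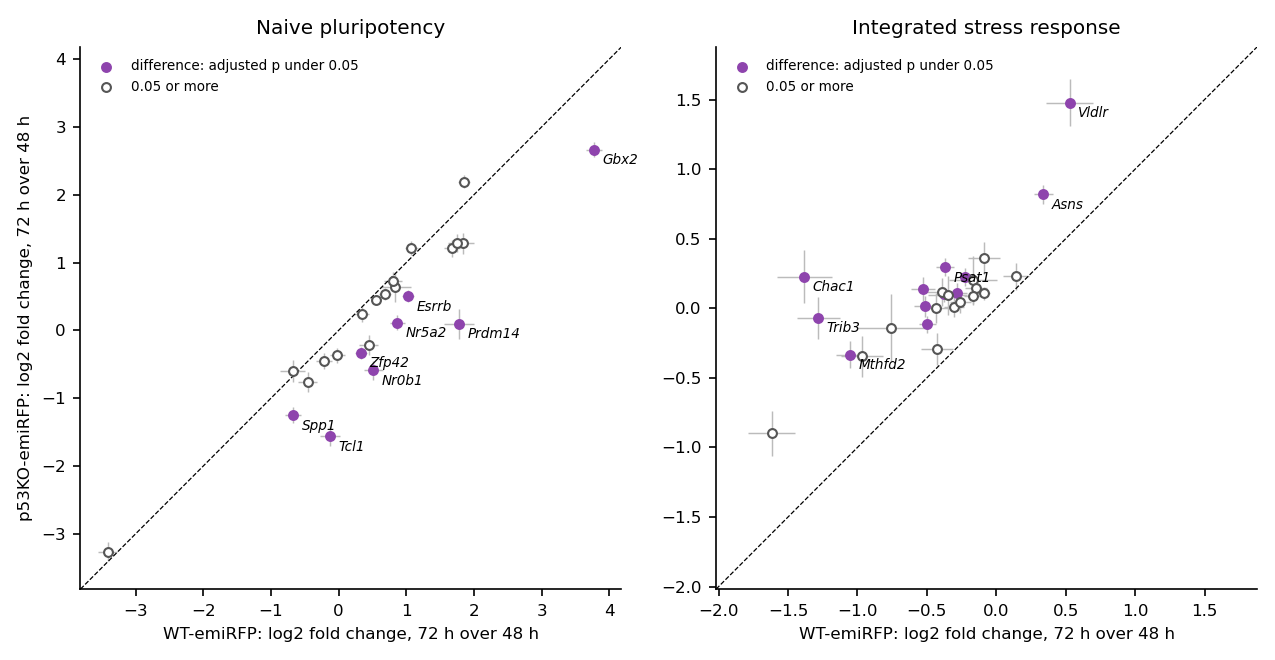
Log2 fold change of 72 h over 48 h in p53KO cells (y axis) against that in WT-emiRFP cells (x axis) for the naive pluripotency genes (left) and the integrated stress response genes (right), with bars of 1 SE and a dashed line of equal change. Filled points had a difference with an adjusted p below 0.05: the 8 filled naive genes lie below the line and the 12 filled stress response genes above it.

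Outside these groups the largest differences included genes that rose in wild-type cells and were not called higher in p53KO cells. Svop, which encodes a synaptic vesicle protein, gave 13.5, 15.9 and 9.06 and then 5.52, 16 and 3.36 in p53KO cells, and rose 11.4-fold from 126 to 1443 in WT-emiRFP cells and 10.7-fold from 95.5 to 1020 in WT-mCherry cells (differences -4.02 and -3.92, adjusted p = 4.2e-07 and 5.3e-07). Tap1, the peptide transporter of antigen presentation, rose 2.50-fold in WT-emiRFP cells and gave means of 273 and 200 in p53KO cells (difference -1.76, SE 0.23, adjusted p = 1.6e-06). Its fall within p53KO cells (adjusted p = 0.035) was lost without any of the libraries but 48 h replicate 1 (adjusted p up to 0.15). Anks1b fell 6.01-fold from 96.6, 82 and 65.4 to 18.8, 10.7 and 11.2, beside WT-emiRFP means of 185 and 191 (difference -2.64). Tbx4, a T-box gene of the hindlimb and allantois, fell 2.59-fold in p53KO cells while its WT-emiRFP means were 137 and 226 (difference -2.06). Pla2g7 and Wnt6 rose less, 6.01-fold against 23.4-fold and 5.36-fold against 23.1-fold (differences -1.94 and -2.14), and that of Wnt6 was lost in 8 of 12 fits without 1 library (adjusted p up to 0.34). Cldn4 fell 2.32-fold in p53KO cells with WT-emiRFP means of 2852 and 2627 (difference -1.09, SE 0.20, adjusted p = 0.00034), and Axin2 rose 5.19-fold against 7.16-fold (difference -0.46, SE 0.10, adjusted p = 0.0059). On the other side, Kbtbd11 gave 62.4 and 92.6 in p53KO cells (not called in the fit of all libraries, and called higher under TMM factors, without the filter, with fewer libraries in the fit, with the replicate experiment in the fit and by DESeq2) and fell 2.27-fold from 619 in WT-emiRFP cells (difference 1.76), Jdp2, an AP-1 repressor, rose 2.62-fold beside WT-emiRFP means of 215 and 221 (difference 1.35), and Dnmt3b fell 3.64-fold against 5.42-fold (difference 0.57, SE 0.12, adjusted p = 0.0032). Of the Wnt target list, 2 genes, Axin2 and Tnfrsf19, had a lower change than in WT-emiRFP cells, or 5 lower and 1 higher with the replicate experiment in the fit. The call of Tnfrsf19 was lost in 4 of 12 fits without 1 library, those without replicate 3 of either line at 48 h, p53KO replicate 2 at 72 h or WT-emiRFP replicate 3 at 72 h (adjusted p up to 0.15). In the fit of all libraries, neither edgeR nor DESeq2 called a streak or Hox gene against WT-emiRFP cells, and at an unadjusted p below 0.05 edgeR gave 3 of the 21 streak genes and 6 of the 37 Hox genes. With the replicate experiment in a fit of the compared groups, 2 streak genes were higher and 5 lower, and 1 Hox gene was higher and 1 lower. The genes named above that were called there were T, Cdx2, Fgf8, Nkx1-2, Wnt3, Tbx3, Hoxb1 and Hoxd13. Against WT-mCherry cells the fit of all libraries called Lhx1 and Eomes higher and Tbx3 lower in the streak list, with 0 to 2 higher without 1 library, and Hoxb13 lower in the Hox list (difference -2.74, SE 0.72, adjusted p = 0.0496), a call lost under TMM factors and in 9 of 12 fits without 1 library. With the replicate experiment in a fit of those groups, 4 streak genes were higher and 4 lower, and 1 Hox gene was higher and 4 lower. Without the filter on low counts, edgeR called, against WT-emiRFP cells, 2 streak genes higher and 4 lower, and 1 Hox gene higher and 2 lower.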

How the data were processed

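RNA of sorted cells and of unmixed stem cells was sequenced after poly A enrichment with a stranded kit. The authors trimmed reads with Trim Galore 0.6.7, aligned them with STAR 2.7.11b to GRCm38.p6 with Gencode annotation (release 25 for mouse), and deposited raw counts of uniquely mapped reads per gene. A strand setting is not given in the sources used here. The 6 p53KO libraries held 46388381 to 60887913 counts, and the precision of genes with few counts is set by their number.

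From these counts, median-of-ratios size factors, the filter of edgeR by group and edgeR's quasi-likelihood test were computed in 1 fit of all 69 libraries over 23 groups taken from the labels (R 4.3.3, edgeR 4.0.16, pandas 2.3.3, numpy 2.4.6). Contrasts were the p53KO change from 48 h to 72 h, and that change minus the change of WT-emiRFP or of WT-mCherry cells. SE is the absolute log2 change over the root of F. Normalised counts are not divided by transcript length, so levels of different genes are not compared.

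The text names the 12 largest rises and falls, and the 6 largest differences each way, among called genes with a mean of at least 100 normalised counts and one direction in each of the 3 pairs of equal replicate number. For the rises and falls, but not for the differences, the groups also had to show no overlap. Members of gene lists, Trp53, Trim24, Dnm1l and Foxo3 are named in addition. Members and lists were chosen with earlier results of these data known. Some members were named after their values were seen.

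Same-numbered libraries of 48 h and 72 h deviated together (r = 0.220, 0.330 and 0.413 over 13397 genes), and the study's methods give 3 experiments separated in time, so the numbers pair the samples. The fit of all 69 libraries, which gives the main calls, SE and adjusted p-values, has no term for this pairing. Values from fits of the compared libraries with the replicate experiment as a term stand beside the counts of gene groups and the main genes whose call they changed. Those fits called 32 further named genes in the difference from WT-emiRFP and 47 in that from WT-mCherry, which are not all given one by one. On simulated counts edgeR called 95.5% of 200 genes with a 2-fold change between the times (20974 genes), with 6.37% of calls on unchanged genes. With the replicate experiment in a fit of the compared groups the values were 90% and 9.09% (17001 genes), and for the difference from WT-emiRFP 87% and 3.33% (20978 genes). The simulated libraries were drawn independently, without an effect shared within a replicate experiment, and only 200 genes were changed. The simulation therefore cannot rank the fits with and without the replicate term, and it gives no error rate for the real counts.

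Alternatives were TMM factors, no filter, the compared groups or the 24 sorted libraries of 48 h and 72 h alone, the replicate block, DESeq2 1.42.0, a minimum change and leaving out each library. Promoters came from the RefSeq table of GRCm38.p6, which was used for sequences only, without chromosome 18. Some genes are not reported here.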

Additional observations from a re-analysis of the deposited data

Results flagged for a closer look

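For each of the genes that follow, the change from 48 h to 72 h in p53KO cells differed from the change in wild-type cells by edgeR's test of the difference itself (adjusted p below 0.05, 3 libraries in each of the 4 groups). Values are differences of log2 changes, p53KO minus wild type. No cause was tested, and the comparisons with WT-emiRFP and with WT-mCherry cells share the p53KO libraries.

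Among p53 targets and cell cycle genes, Cdkn1a differed by 3.53 from WT-emiRFP and by 3.36 from WT-mCherry cells. Pmaip1 differed by 0.85 and 0.58. The differences of Mdm2 were -0.64 and -0.69, and those of Gtse1 were -0.61 and -0.62. Ccnd2 differed by -0.96 from WT-emiRFP cells, where it rose 13.3-fold beside 6.88-fold in p53KO cells, a call lost in 3 of 12 fits without 1 library (adjusted p up to 0.067). Ddit4 differed by 0.75 from WT-mCherry cells, a call lost in 6 of 12 fits without 1 library. Several genes given here against only 1 of the 2 wild-type groups were called against the other under other settings. Against WT-emiRFP cells, Ddit4 and Klf2 were called without the filter on low counts, with the compared groups or the sorted libraries alone, with the replicate experiment in the fit of the compared groups and by DESeq2. Tbx3 and Tfcp2l1 were called there without the filter and with the replicate experiment in the fit.

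Among pluripotency genes, the differences from WT-emiRFP and WT-mCherry cells were -1.11 and -0.93 for Gbx2, -1.43 and -1.25 for Tcl1, -1.10 and -0.98 for Nr0b1, and -0.75 and -0.73 for Nr5a2. For Zfp42 they were -0.67 and -0.50, for Prdm14 -1.68 and -1.09, for Esrrb -0.52 and -0.60, and for Spp1 -0.58 and -0.61. In the comparison with WT-mCherry cells, Tbx3 differed by -0.90, Tfcp2l1 by -0.84 and Klf2 by -0.90, and Klf2 gave 1863, 1825 and 1604 normalised counts and then 1728, 1343 and 1496 in p53KO cells (adjusted p = 0.0024 with the replicate experiment in a fit of these libraries) while it rose 1.60-fold in WT-mCherry cells. The methyltransferase gene Dnmt3b differed by 0.57 and 0.42, and Dnmt3a by 0.34 from WT-mCherry cells. The call against WT-mCherry cells was lost without 1 library in 11 of 12 fits for Dnmt3b, in 10 for Prdm14, and in 6 each for Dnmt3a, Spp1 and Tfcp2l1.

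Stress response genes differed from WT-emiRFP cells by 1.61 (Chac1), 1.21 (Trib3), 0.95 (Vldlr), 0.72 (Mthfd2), 0.67 (Psat1) and 0.48 (Asns).

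Among developmental genes, Wnt6 differed by -2.14, Axin2 by -0.46 and Tnfrsf19 by -0.49 from WT-emiRFP cells, and Wnt7b by -1.73 from WT-mCherry cells. Nodal differed by 0.70 from WT-emiRFP cells, where its means were 2294 and 6612. Lhx1 and Eomes differed by 1.72 and 0.76 from WT-mCherry cells. Tbx4 differed by -2.06 and -1.93, Tek by -1.28 and -1.41, and Kdr by -1.80 from WT-emiRFP cells. Insm1, a zinc-finger factor of neuroendocrine cells, fell 2.29-fold in p53KO and 6.65-fold in WT-mCherry cells (difference 1.53). The calls of Wnt6 and Abcg1 against WT-emiRFP cells were lost in 8 of 12 fits without 1 library, that of Kdr in 9, that of Nodal in 6 and that of Tnfrsf19 in 4. Against WT-mCherry cells those of Eomes, Lhx1, Wnt7b and Insm1 were lost in 9, 5, 5 and 2.

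Of the other genes, Svop differed by -4.02 and -3.92, Anks1b by -2.64 and -3.07, Pla2g7 by -1.94 and -1.77, Tap1 by -1.76 and -1.67, and Plcd4 by -1.41 and -1.83. Nt5e differed by -1.22 and -1.10, Axl by -1.10 and -1.34, Cldn4 by -1.09 and -1.01, Peg10 by -0.81 and -0.74, and Abcg1 by -0.58 and -0.66. On the higher side, Kbtbd11 differed by 1.76 and 1.64 and Rassf4 by 1.03 and 1.25, while Fut1 differed by 1.63 and Jdp2 by 1.35 from WT-emiRFP cells. Against WT-mCherry cells, Scml2 differed by 1.52, Grb10 by 1.25, Pak6 by -1.26, Dscaml1 by -1.79 and Zfp750 by -2.26. Zfp750 stood at 12.3, 9.79 and 3.02 and then at 3.31, 2.67 and 2.24 normalised counts in p53KO cells, beside WT-mCherry means of 348 and 574, and Dscaml1 at 10.1, 15.9 and 16.1 and then at 8.83, 15.1 and 4.48, beside 253 and 617. The calls of Zfp750 and Dscaml1 were lost in 8 and 9 of 12 fits without 1 library, and against WT-mCherry cells those of Grb10 and Pak6 in 5 each, Abcg1 in 4, Nt5e in 3 and Pla2g7 in 1. Against WT-emiRFP cells that of Axl was lost in 1.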

How the results depend on the processing

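Between 48 h and 72 h, 4869 genes rose and 4930 fell in p53KO cells, and these counts stayed within 1.5 times under TMM factors, no filter, other sets of libraries, the replicate block, DESeq2 and each left-out library (4305 to 4519 and 4389 to 4540). A minimum log2 change of 1 left 1454 and 1821, 20 and 86 for the difference from WT-emiRFP, and 18 and 114 for that from WT-mCherry. The differences were less stable in number. With the sorted libraries of 48 h and 72 h alone they were 258 and 401 against WT-emiRFP and 185 and 575 against WT-mCherry. With the replicate block over all libraries, the higher counts were 249 and 159, and with the block in the compared groups alone the counts were 752 and 783, and 1088 and 1351. Against WT-mCherry, 138 genes were higher without the filter and 186 with the compared groups alone. Without 1 library the counts were 87 to 119 and 161 to 216 against WT-emiRFP, and 48 to 63 and 222 to 303 against WT-mCherry. The lowest were without 48 h p53KO replicate 1 (87), 72 h WT-mCherry replicate 1 (48) and 48 h WT-mCherry replicate 2 (222), and the higher count against WT-mCherry also fell to 49 to 54 without 72 h p53KO replicate 1, 48 h WT-mCherry replicate 1 or any 48 h p53KO replicate. Fewer libraries per fit bear on these counts, and other causes were not tested. No named value changed sign once called. Of the called genes followed one by one, 4 of 148 lost the call between the times without some library, 10 of 41 against WT-emiRFP and 18 of 41 against WT-mCherry. These numbers leave out some named Hox genes, among them Hoxb13, which lost its call against WT-mCherry. TMM factors ended the fall of Tap1 and the differences of Dnmt3b, Dscaml1 and Hoxb13 from WT-mCherry. A fit of the compared groups alone ended the differences of Abcg1 from WT-emiRFP and of Prdm14 and Zfp750 from WT-mCherry, a fit of the sorted libraries alone those of Wnt6 and of Eomes, and the replicate block over all libraries that of Kdr. Against WT-emiRFP, the fit without the filter gained 25 named genes, T and Cdx2 among them, and the block in the compared groups gained 32. Of calls between the times, 49.7% were rises, or 52.5% under TMM.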

Other observations

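Other gene groups of the p53KO cells held both rises and falls between 48 h and 72 h, beside 23.1% of all genes higher and 23.3% lower. Of 19 retinoic acid genes 6 rose and 3 fell, and Cyp26a1, the enzyme that degrades retinoic acid in the posterior embryo, rose 3.25-fold from 16.8, 11.02 and 19.1 normalised counts to 61.8, 50.7 and 40.3 (adjusted p = 0.0011). Of 22 Notch and segmentation clock genes 8 rose and 7 fell. Hes1, a Notch target and repressor, rose 3.48-fold from 524, 574 and 519 to 1963, 2040 and 1617, whereas the ligand gene Dll4 fell 5.21-fold from 79.7, 73.5 and 74.5 to 21.0, 16.0 and 6.72. The times did not overlap in either gene.

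Of 20 YAP/TEAD target genes 8 rose and 4 fell. Nt5e, which encodes the ectonucleotidase CD73, stood at 93.2, 136 and 138 at 48 h and at 4263, 4003 and 4525 at 72 h, a 34.9-fold rise beside 81.2-fold in WT-emiRFP cells. The receptor kinase gene Axl rose 1.40-fold beside 3.00-fold in WT-emiRFP cells, and its rise in p53KO cells lost the call in 4 of 6 fits without 1 library. Of 24 genes of collagens and the basement membrane 12 rose and 5 fell (3 without 72 h replicate 1), and Col4a1, of the basement membrane, rose 2.47-fold.

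Of 22 imprinted genes 8 rose and 8 fell. Peg10 rose 2.51-fold from 12900, 13514 and 13198 to 29836, 28306 and 41241, beside 4.39-fold in WT-emiRFP cells. Plagl1 rose 5.37-fold, and the non-coding RNA H19 fell 4.04-fold from 117, 245 and 46.3 to 26.5, 45.4 and 29.1. Grb10 had means at 48 h and 72 h of 10777 and 17134 in p53KO cells, 10907 and 10886 in WT-emiRFP cells, and 2849 and 1908 in WT-mCherry cells. What sets these levels apart was not tested. Of 24 genes of cholesterol synthesis 6 rose and 9 fell, and Ebp, a sterol isomerase, rose 4.43-fold from 546, 525 and 537 to 2478, 2316 and 2334.

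Among smaller lists, 3 of 10 primordial germ cell genes rose and 5 fell, 3 of 12 extraembryonic endoderm genes rose and 2 fell (0 without 72 h replicate 1 and 1 without any other library but 72 h replicate 2), and 3 of 14 lateral plate and cardiac genes rose and 3 fell. Of 18 CDK inhibitors and D cyclins 6 rose and 3 fell (6 lower with the replicate experiment in the fit). Tek, the angiopoietin receptor, fell 4.78-fold from 108, 90.6 and 85.6 to 19.9, 20.5 and 19.04.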
